A study of Mus musculus with 18 samples.

Results

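The genes described here make cholesterol and fatty acids or regulate that synthesis. They are 32 genes chosen by name: 3 that supply acetyl-CoA or NADPH, 7 of the mevalonate arm, 9 of the squalene and sterol arm, 6 that regulate the SREBP factors or move sterol, and 7 that build, elongate or desaturate fatty acids. All 32 were among the 23418 genes of the deposited table, and all 32 passed the filter on low values, which kept 11238 genes. The cells were mouse leukemia cells of strain C57BL/6, transformed by 1 of 3 constructs in which MLL is fused to a partner: MLL-AF9, MLL-AF6 or MLL-AF1p. Each was cultured for 6 days in serum-containing medium with 6 µM MI-2-2, a compound that blocks the binding of menin to MLL, or with DMSO alone, the solvent being at 0.25% in both. Medium and compound were renewed on day 3. Each of the 6 groups had 3 libraries of polyA RNA, 18 in all, and the series title asks whether the response depends on the fusion partner. The labels do not say that replicates were separate cultures or clones, so p-values measure only how these libraries vary, and that variation may be technical.

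Cholesterol synthesis starts from acetyl-CoA, passes through mevalonate and the isoprenoids to squalene, and ends in a series of sterol steps that yield cholesterol. Fatty acid synthesis uses the same acetyl-CoA: acetyl-CoA carboxylase and fatty acid synthase make palmitate, which elongases lengthen and desaturases give double bonds. Both routes are driven by the SREBP transcription factors, which SCAP carries out of the endoplasmic reticulum when sterol is low and INSIG proteins hold there when sterol is high; SREBP-2 is known mainly for the sterol genes and SREBP-1 for the fatty acid genes. Growing leukemia cells need both products for membranes.

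Expression is given as RPKM, reads per kilobase of gene and per M (1000000) counted reads, so levels can be compared between genes. Libraries held 21.18 to 56.3 M counted reads, with the MLL-AF1p libraries the deepest at 48.88 to 56.3 M. Mean levels of the 32 genes over the 18 libraries ran from 213.5 RPKM (Scd2, a stearoyl-CoA desaturase) and 194.6 (Fdps, farnesyl diphosphate synthase) down to 2.43 (Insig2) and 1.90 (Me1). The fewest reads on any gene in any library were 48 for Me1 and 73 for Scd1, so counting error is largest for these genes. Differences are log2 fold changes of RPKM + 0.5 from limma, which understate the change of low genes. The words rose and fell are kept for genes whose Benjamini-Hochberg adjusted p, taken over all 11238 genes, was under 0.05. Because the RNA is bulk RNA, a lower level in each cell and fewer cells of an expressing type cannot be told apart.

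The control libraries numbered 2 stood apart for these genes in every construct. The second DMSO library was the lowest of 3 for 26 of the 32 genes in MLL-AF9, for 23 in MLL-AF6 and for 31 in MLL-AF1p. Its median ratio to the mean of libraries 1 and 3 was 0.657 in MLL-AF1p, 0.823 in MLL-AF9 and 0.908 in MLL-AF6. In MLL-AF1p that ratio ran from 0.291 for Fads2 to 1.12 for Scap. The median of all kept genes in that library lay within 0.01 of its group mean on the log2 scale, against -0.40 for the 32 genes. Rises with MI-2-2 in MLL-AF1p are therefore given with and, beside them, without this low control library.

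The treated cells also differed from controls in their myeloid markers. Of 7 markers of myeloid leukemia cells, 4 fell in MLL-AF1p, 5 fell and 2 rose in MLL-AF9, and 5 fell and 1 rose in MLL-AF6. Their summed RPKM was 267.2 to 326.3 in DMSO and 150.1 to 157.1 with MI-2-2 in MLL-AF9, 400 to 510.6 and 170.5 to 179.1 in MLL-AF6, and 371.2 to 386.7 and 246.4 to 261.8 in MLL-AF1p. Neutrophil markers rose for 10 of 10 genes in MLL-AF9, 10 of 10 in MLL-AF6 and 9 of 10 in MLL-AF1p, and macrophage markers for 9, 8 and 10 of 10. The summed RPKM of the macrophage list was 590.8 to 1949 in DMSO and 4382 to 5651 with MI-2-2 in MLL-AF9, 2055 to 4147 against 10020 to 14240 in MLL-AF6, and 689.4 to 806 against 4238 to 4695 in MLL-AF1p. The neutrophil sums were 2917 to 4115 against 24800 to 28890 in MLL-AF9, 2295 to 3140 against 18780 to 20610 in MLL-AF6, and 3401 to 3848 against 30940 to 35870 in MLL-AF1p. Of 12 proliferation genes, 2 rose and 1 fell in MLL-AF1p, while 12 rose in MLL-AF9 and 4 in MLL-AF6. Most markers of other lineages were near background: 6 of 9 erythroid and megakaryocyte, 8 of 10 lymphoid and 8 of 10 stromal and endothelial genes were below 1 RPKM in all 18 libraries, with Cd3e, Ebf1 and Lum among those listed at 0. Of the stromal and endothelial list, Pecam1, an adhesion protein of endothelial and myeloid cells, had the highest mean in every group. It fell in every construct, from means of 11.1, 61.0 and 81.5 RPKM in DMSO to 4.31, 24.6 and 39.1 in MLL-AF9, MLL-AF6 and MLL-AF1p. The other gene of that list above 1 RPKM rose in each, and in treated MLL-AF9 cells its mean of 3.82 RPKM was close to that of Pecam1. The part of these marker changes in the results below was not tested.

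With MI-2-2, most of the 32 genes rose in MLL-AF1p cells, 5 of 9 genes of the squalene and sterol arm rose in MLL-AF9 cells, and of 7 fatty acid genes 5 fell in MLL-AF6 and 4 in MLL-AF9 cells. In MLL-AF1p cells 22 of the 32 genes rose and none fell. In MLL-AF9 cells 11 rose, 7 of them enzymes of the mevalonate and sterol arms, and 5 fell, 4 of them fatty acid genes. In MLL-AF6 cells 2 rose, Fdps and Hsd17b7, and 7 fell. These counts depend in part on scaling: with each library centred on its median, 7 rose in MLL-AF6 (adding Hmgcs1, Mvk, Mvd, Sqle and Fads1) and 7 in MLL-AF9 (without Fdps, Ebp, Stard4 and Me1), and with quantile normalization 6 rose in MLL-AF6. The counts stand beside a broad response: of all 11238 genes, 19.1% were called higher and 26.3% lower in MLL-AF1p (45.4% in all), 28.5% higher and 27.9% lower in MLL-AF9 (56.4%), and 18% higher and 38.9% lower in MLL-AF6 (57.0%). The 50.0% of the 32 genes called in MLL-AF9 and the 28.1% called in MLL-AF6 thus lie below the share of all genes, and the 68.8% called in MLL-AF1p lie above it. Each count of 0 for the effects of MI-2-2, for all 32 genes and by role, was also 0 at an unadjusted limma p under 0.05 and by voom on the recovered reads, except that voom called Insig2 lower in MLL-AF1p.

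Median log2 fold changes of the 32 genes were 0.63 in MLL-AF1p, 0.17 in MLL-AF9 and -0.09 in MLL-AF6. Over all genes the medians were -0.06, -0.00055 and -0.16, so the genes of MLL-AF6 cells moved against a background that itself lay lower. After each library was centred on its median, the median of the 32 genes in MLL-AF6 was -0.01, against -0.08 for all genes. Without the second MLL-AF1p control library, 17 genes rose in MLL-AF1p, 1 fell (Scd1) and the median was 0.355. The 5 rises lost were those of Acly, Pmvk, Dhcr7, Acaca and Fads2.

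Some of these calls were lost when a single library was left out, several of them with any of a number of libraries, and others were not. With each of the 18 libraries left out in turn, 17 rises in MLL-AF1p passed every time, as did all 7 falls in MLL-AF6. In MLL-AF9 only 6 of the 11 rises did so: Hmgcs1, Sqle, Cyp51, Hsd17b7, Srebf2 and Insig1. Of the 5 falls in MLL-AF9, only that of Elovl6 did. The count of falls there was 1 without DMSO library 1, 2 without DMSO library 3, and 1 without MI-2-2 library 2 or 3. The count of rises there was 7 without MI-2-2 library 1 and 6 without DMSO library 2, which lost Me1, Fdps, Lss, Ebp and Stard4. In MLL-AF6 rises numbered 4 without DMSO library 1 and 1 without MI-2-2 library 3. They numbered 7 without the second MLL-AF1p control, which bears on MLL-AF6 only through the shared estimate of the spread.

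**Figure D1:**
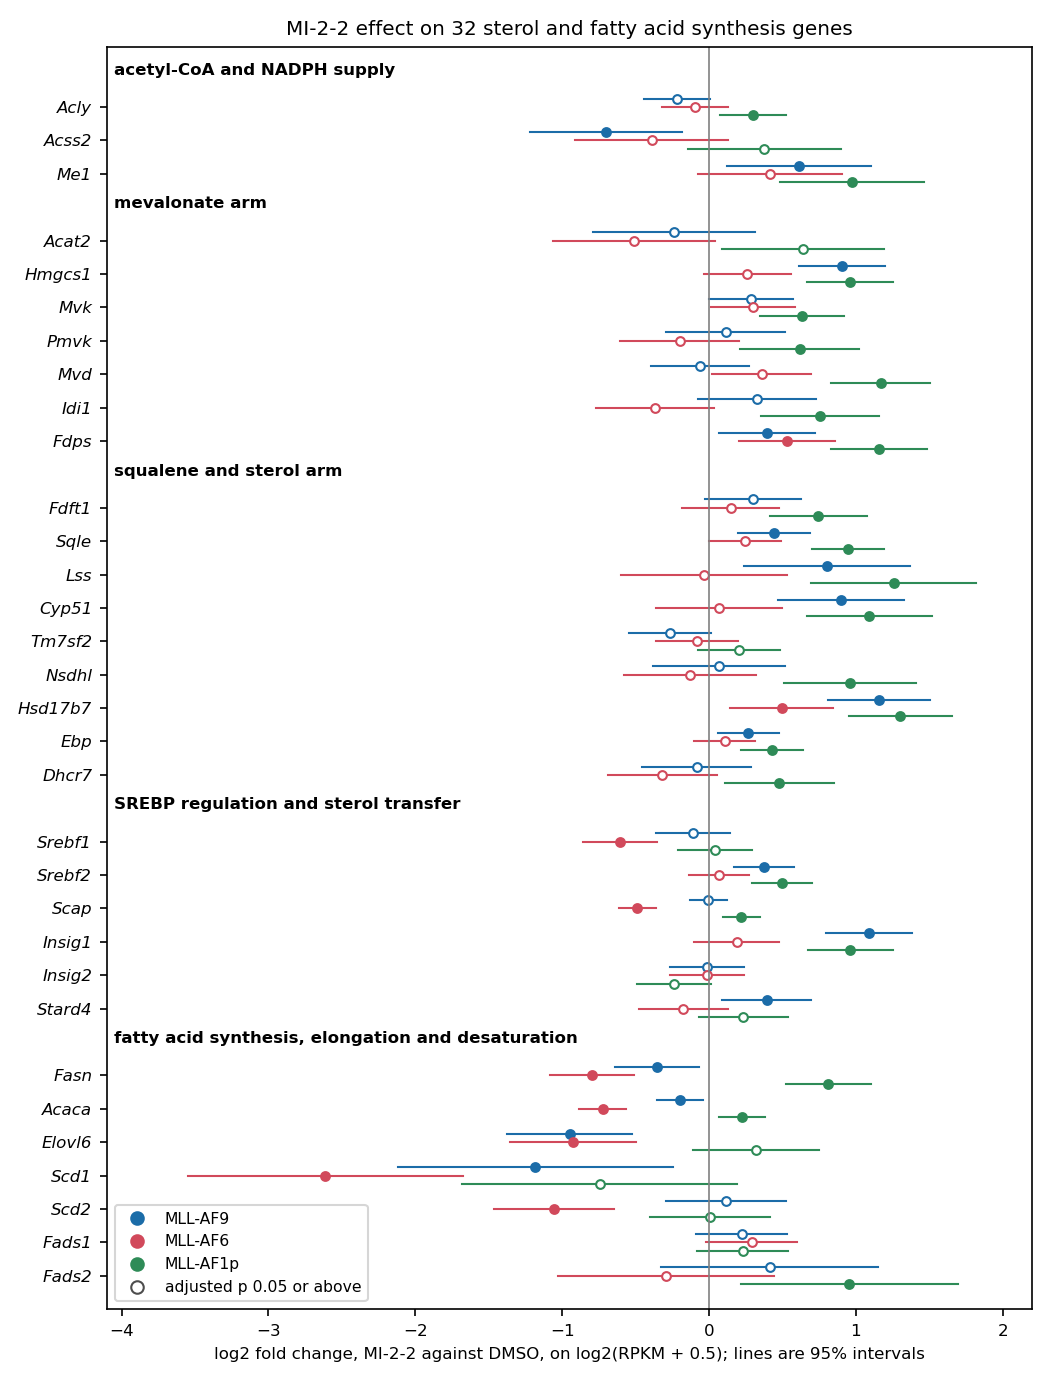
Log2 fold change of each of the 32 genes, MI-2-2 against DMSO, in MLL-AF9 (blue), MLL-AF6 (red) and MLL-AF1p (green) cells, with 95% intervals; open points did not pass. The green points of the mevalonate and sterol genes lie to the right, and the red points of Scd1, Scd2, Elovl6, Fasn and Acaca lie to the left of 0.

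Promoter stretches are shown for 7 genes, 5 of the sterol side and 2 of the fatty acid side. Hsd17b7, Insig1, Cyp51, Hmgcs1 and Lss rose in both MLL-AF9 and MLL-AF1p, while Fasn and Elovl6 fell in MLL-AF9 and MLL-AF6. They were picked after the values were seen. Each runs 5′ to 3′ along the gene's strand from 200 to 51 bases before the RefSeq start in GRCm38.p6, a later build than the mm9 build of the deposited data. Capitals mark matches, on either strand, to CCAAT, to the E-box CACGTG and to the sterol element TCACNCCAC.
Hsd17b7, chr1:169969256-169969405, minus strand: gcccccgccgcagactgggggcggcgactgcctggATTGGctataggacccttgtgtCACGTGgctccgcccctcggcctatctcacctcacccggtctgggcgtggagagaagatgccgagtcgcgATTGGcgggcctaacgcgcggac
Insig1, chr5:28071212-28071361, plus strand: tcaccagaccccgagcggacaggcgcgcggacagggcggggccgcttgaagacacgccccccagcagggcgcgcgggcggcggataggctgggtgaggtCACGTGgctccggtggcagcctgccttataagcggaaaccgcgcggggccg
Hmgcs1, chr13:119690151-119690300, plus strand: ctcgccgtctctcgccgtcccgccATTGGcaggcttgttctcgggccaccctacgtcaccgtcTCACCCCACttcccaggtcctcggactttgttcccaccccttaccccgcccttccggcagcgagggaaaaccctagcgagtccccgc
Lss, chr10:76531405-76531554, plus strand: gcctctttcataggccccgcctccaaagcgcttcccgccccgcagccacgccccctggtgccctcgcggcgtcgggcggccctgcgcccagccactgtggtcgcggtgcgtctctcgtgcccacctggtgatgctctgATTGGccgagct
Cyp51, chr5:4104748-4104897, minus strand: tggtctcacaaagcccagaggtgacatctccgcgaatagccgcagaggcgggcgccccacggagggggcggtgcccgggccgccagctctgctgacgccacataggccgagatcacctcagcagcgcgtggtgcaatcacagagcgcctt
Fasn, chr11:120824598-120824747, minus strand: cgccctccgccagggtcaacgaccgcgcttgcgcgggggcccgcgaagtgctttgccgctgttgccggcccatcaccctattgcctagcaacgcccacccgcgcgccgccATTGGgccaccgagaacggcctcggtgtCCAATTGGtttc
Elovl6, chr3:129532186-129532335, plus strand: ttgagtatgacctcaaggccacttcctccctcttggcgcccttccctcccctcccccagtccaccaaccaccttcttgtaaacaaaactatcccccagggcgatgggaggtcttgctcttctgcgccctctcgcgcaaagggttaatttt

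Hmgcs1 carries TCACCCCAC 137 bases before its start, Insig1 and Hsd17b7 each carry CACGTG, and the Cyp51 and Elovl6 stretches hold none of the motifs. In Fasn, matches to CCAAT on the 2 strands overlap at the end of the stretch. Over the whole 300-base windows (250 before to 50 after the start), 25 of the 32 genes had at least 1 promoter in the RefSeq table, 34 promoters together. CCAAT, searched on both strands, stood in 61.8% of these 34 promoters and in 37.4% of all 32851 promoters. CACGTG stood in 14.7% against 7.15%, in Dhcr7, Hsd17b7, Insig1 and Scap. The 2 Scap promoters overlap and hold the same site, which was counted in both. TCACNCCAC stood in 2.94% against 1.24%, in Hmgcs1 alone of these genes, and TCANNTGA, another form of E-box, in 2.94% against 8.39%, in Insig2 alone. These are exact matches of letters and not measured sites, and sterol elements with other letters were not searched for or marked.

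The mevalonate arm turns acetyl-CoA into farnesyl diphosphate. Of its 7 genes, 6 rose in MLL-AF1p, 2 in MLL-AF9 (Hmgcs1 and Fdps) and 1 in MLL-AF6 (Fdps), and none fell in any construct. These are 85.7%, 28.6% and 14.3% of the arm, against 19.1%, 28.5% and 18% of all genes called higher, so its share of rises was above that of all genes in MLL-AF1p, at it in MLL-AF9 and below it in MLL-AF6. Median log2 fold changes were 0.76 in MLL-AF1p, 0.29 in MLL-AF9 and 0.26 in MLL-AF6. Without the second MLL-AF1p control library, 5 of the 7 rose in MLL-AF1p and the median was 0.56.

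Fdps, which joins isoprenoid units into farnesyl diphosphate, was the most abundant gene of the arm and one of 2 of the 32 genes that rose in all 3 constructs. In MLL-AF9 its DMSO libraries measured 222.9, 211 and 198 RPKM and its MI-2-2 libraries 261.3, 310.2 and 262.7. In MLL-AF6 the values were 121.4, 106.6 and 122.3 against 147.9, 186.7 and 174. In MLL-AF1p they were 147, 85.2 and 138.2 against 258.8, 278.5 and 270.0. The groups did not overlap in any construct. The log2 fold changes were 0.40 (SE 0.15, adjusted p = 0.0378) in MLL-AF9, 0.53 (SE 0.15, adjusted p = 0.00804) in MLL-AF6 and 1.16 (SE 0.15, adjusted p = 2.1e-05) in MLL-AF1p. The call in MLL-AF9 was lost in 7 of 28 alternatives, among them median centring and without DMSO library 2 (limma adjusted p = 0.0699). The MLL-AF1p effect was 0.91 without the low control library, and larger than the MLL-AF9 effect by 0.76 (limma adjusted p = 0.0134).

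Hmgcs1 makes HMG-CoA, the substrate of the rate-limiting step. It rose 1.87-fold in MLL-AF9, from 41.9 ± 7.63 to 78.5 ± 10.6 RPKM (SD, n = 3, as for every mean here), and 1.94-fold in MLL-AF1p (1.74-fold without the low control library), from 54.4 ± 10.1 to 105 ± 4.91. In MLL-AF6 it measured 47.5 ± 1.52 in DMSO and 57.2 ± 3.89 with MI-2-2, groups that did not overlap, with a log2 fold change of 0.26 that did not pass (limma adjusted p = 0.117). The MLL-AF6 effect was smaller than the MLL-AF9 effect by 0.64 (SE 0.20, limma adjusted p = 0.0199).

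Mvd, which decarboxylates mevalonate diphosphate, rose in MLL-AF1p and did not pass in the other constructs. Its MLL-AF1p libraries measured 23.2, 13.8 and 20.4 RPKM in DMSO and 42.8, 41.3 and 43.9 with MI-2-2, a log2 fold change of 1.17, or 0.96 without the low control library. In MLL-AF9 the values were 57.1, 51.1 and 58.1 against 54.6, 52.6 and 51.9, and in MLL-AF6 27.2, 17.8 and 23.6 against 26.9, 28.2 and 32.2. The treated MLL-AF1p libraries thus stayed below both MLL-AF9 groups, whose DMSO mean was 55.4 RPKM. The effect was larger in MLL-AF1p than in MLL-AF9 by 1.23 (SE 0.22, limma adjusted p = 0.000706).

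Idi1, the isomerase of isopentenyl diphosphate, split MLL-AF1p from MLL-AF6. In MLL-AF1p it measured 108.6, 67.6 and 97.3 RPKM in DMSO and 147.5, 159.6 and 147.3 with MI-2-2, a rise of 0.76 (limma adjusted p = 0.00425; 0.56 without the low control library). In MLL-AF6 all 3 treated libraries, at 63.0, 64.6 and 69.3, lay below the controls at 87.5, 81.6 and 85.3, and the difference of -0.37 did not pass (limma adjusted p = 0.109). In MLL-AF9 the controls spread from 57.8 to 116.5 around treated values of 100.7 to 109.4. The MLL-AF1p effect exceeded that in MLL-AF6 by 1.12 (SE 0.27, limma adjusted p = 0.00541).

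Acat2, the cytosolic thiolase that opens the route, did not pass in any construct. Its response differed among them by the F test (limma adjusted p = 0.0352), a call lost in 9 of 27 alternatives, among them without the low control library (0.0706) and without the filter on low values (0.103). Its libraries measured 47.2, 26.4 and 32.9 RPKM in DMSO against 31.9, 26.7 and 29.4 in MLL-AF9, and 28.9, 19.0 and 25.9 against 17.98, 14.5 and 18.4 in MLL-AF6. In MLL-AF1p they measured 28.3, 11.6 and 23.4 against 31.5, 30.7 and 31.3. Reads of Acat2 may be shared with its near-identical copy Acat3. Mvk and Pmvk, the 2 kinases of mevalonate, rose 1.55-fold and 1.54-fold in MLL-AF1p. Without the low control library Mvk rose 1.39-fold, and the rise of Pmvk was lost without the low control library (log2 fold change 0.36, limma adjusted p = 0.0877).

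The squalene and sterol arm showed the most rises. Of its 9 genes, 8 rose in MLL-AF1p, 5 in MLL-AF9 (Sqle, Lss, Cyp51, Hsd17b7 and Ebp) and 1 in MLL-AF6 (Hsd17b7), and none fell in any construct. These are 88.9%, 55.6% and 11.1% of the arm, above the share of all genes called higher in MLL-AF1p and MLL-AF9 and below it in MLL-AF6. Median log2 fold changes were 0.95 in MLL-AF1p, 0.30 in MLL-AF9 and 0.07 in MLL-AF6. Without the second MLL-AF1p control library 7 rose in MLL-AF1p, with a median of 0.69. Without the second MLL-AF9 control library the rises of Lss and Ebp in MLL-AF9 were lost, and Tm7sf2 fell there.

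Hsd17b7, a 3-ketosteroid reductase of sterol synthesis, had the largest rise of the 32 genes in both MLL-AF9 and MLL-AF1p. Its MLL-AF9 libraries measured 9.89, 5.46 and 8.28 RPKM in DMSO and 18.9, 18.4 and 16.1 with MI-2-2. In MLL-AF1p the values were 9.56, 6.41 and 9.03 against 19.7, 22.5 and 20.9, and in MLL-AF6 6.71, 7.04 and 6.79 against 9.09, 10 and 10.5. No treated library overlapped a control of its construct. The rise was 2.23-fold in MLL-AF9 (adjusted p = 2.22e-05), 1.41-fold in MLL-AF6 (adjusted p = 0.018) and 2.47-fold in MLL-AF1p (adjusted p = 1.31e-05; 2.2-fold without the low control library). It was smaller in MLL-AF6 than in MLL-AF9 by 0.66 on the log2 scale (limma adjusted p = 0.0389). Without MI-2-2 library 3 of MLL-AF6 the rise there was 0.45 and did not pass (limma adjusted p = 0.0608).

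Lss closes the ring of lanosterol, and Cyp51 removes its 14-alpha methyl group. In MLL-AF9 Lss measured 33.2, 17.1 and 23.2 RPKM in DMSO and 44.9, 40.3 and 39.97 with MI-2-2. In MLL-AF1p it measured 26.9, 10.7 and 21.9 against 45.3, 43.6 and 46.1, and in MLL-AF6 25.5, 18.2 and 21.3 against 18.9, 19.7 and 24.7. The treated libraries lay above every control in MLL-AF9 and MLL-AF1p and overlapped them in MLL-AF6. The log2 fold changes were 0.80 (SE 0.26, adjusted p = 0.017), -0.03 (SE 0.26, adjusted p = 0.925) and 1.26 (SE 0.26, adjusted p = 0.0012) in MLL-AF9, MLL-AF6 and MLL-AF1p. The rise in MLL-AF9 was 0.58 and did not pass without its DMSO library 2 (limma adjusted p = 0.0899), and the rise in MLL-AF1p was 0.88 without the low control library.

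Cyp51 followed the same order of constructs. It measured 31.3, 16.7 and 21.4 RPKM in DMSO against 45.0, 42.2 and 39.6 with MI-2-2 in MLL-AF9, and 33.6, 20.5 and 29.5 against 58.4, 59.96 and 58.0 in MLL-AF1p. In MLL-AF6 the values were 35.7, 23.7 and 28.0 against 28.7, 27.9 and 34.2, which overlap. Its log2 fold changes were 0.90 in MLL-AF9 (adjusted p = 0.00136), 0.07 in MLL-AF6 (adjusted p = 0.793) and 1.09 in MLL-AF1p (adjusted p = 0.000416; 0.89 without the low control library). The effect in MLL-AF6 was smaller than that in MLL-AF9 by 0.83 (limma adjusted p = 0.0354) and than that in MLL-AF1p by 1.03 (limma adjusted p = 0.013).

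Nsdhl, which acts at carbon 4 of the sterol, rose in MLL-AF1p and did not pass in the other constructs. Its MLL-AF1p libraries measured 33.4, 17.1 and 27.8 RPKM in DMSO and 49.5, 48.3 and 50.4 with MI-2-2, a log2 fold change of 0.96, or 0.69 without the low control library. In MLL-AF9 they measured 56.3, 32.5 and 43.1 against 47.4, 42.6 and 45.1, and in MLL-AF6 33.0, 24.1 and 30.5 against 27.4, 22.6 and 30.1. Both of these pairs of groups overlapped. The MLL-AF1p effect exceeded that in MLL-AF9 by 0.89 (limma adjusted p = 0.0303) and that in MLL-AF6 by 1.09 (limma adjusted p = 0.0123).

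Sqle, the squalene epoxidase that is the second control point of the route, rose 1.36-fold in MLL-AF9 and 1.93-fold in MLL-AF1p (1.73-fold without the low control library). Its mean went from 61.1 ± 9.5 to 82.6 ± 3.11 RPKM in MLL-AF9, and in MLL-AF1p from 51.7 ± 9.14 to 99.0 ± 2.11. In MLL-AF6 its 3 treated libraries also lay above the controls, at means of 57.1 against 48.0, without passing (limma adjusted p = 0.0799). Ebp, the sterol isomerase, rose 1.2-fold in MLL-AF9 and 1.35-fold in MLL-AF1p (1.25-fold without the low control library). The call of Ebp in MLL-AF9 was lost in 9 of 28 alternatives, among them without DMSO library 2 (limma adjusted p = 0.116). Dhcr7, the last reductase before cholesterol, rose 1.39-fold in MLL-AF1p, and this was lost without the low control library (log2 fold change 0.21, limma adjusted p = 0.205). Tm7sf2, a sterol reductase, did not pass in any construct.

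Fdft1, squalene synthase, rose 1.68-fold in MLL-AF1p (1.43-fold without the low control library) and did not pass elsewhere, from 29.3 ± 7.64 to 48.3 ± 0.793 RPKM. Its exons share 774 bases with those of Ctsb, the lysosomal protease cathepsin B, on the opposite strand (GENCODE M21, GRCm38), and the library kit does not mark strand. In DMSO mean Ctsb was 93.1, 173.3 and 96.4 RPKM in MLL-AF9, MLL-AF6 and MLL-AF1p, against 402.5, 1054 and 272.8 with MI-2-2. The part of Ctsb reads in the Fdft1 values was not tested. Of the partners with values in the table, those of Lss (381 shared bases), Cyp51 (166), Srebf1 (109) and Acss2 (13) lie on the opposite strand and had means of at most 11.4 RPKM in any group. Exons of Fdps share 1124 bases with a gene model on the same strand, and those of Scap (785), Hmgcs1 (557), Idi1 (323) and Acss2 (152) with models on the opposite strand, whose levels were not analysed here.

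**Figure D2:**
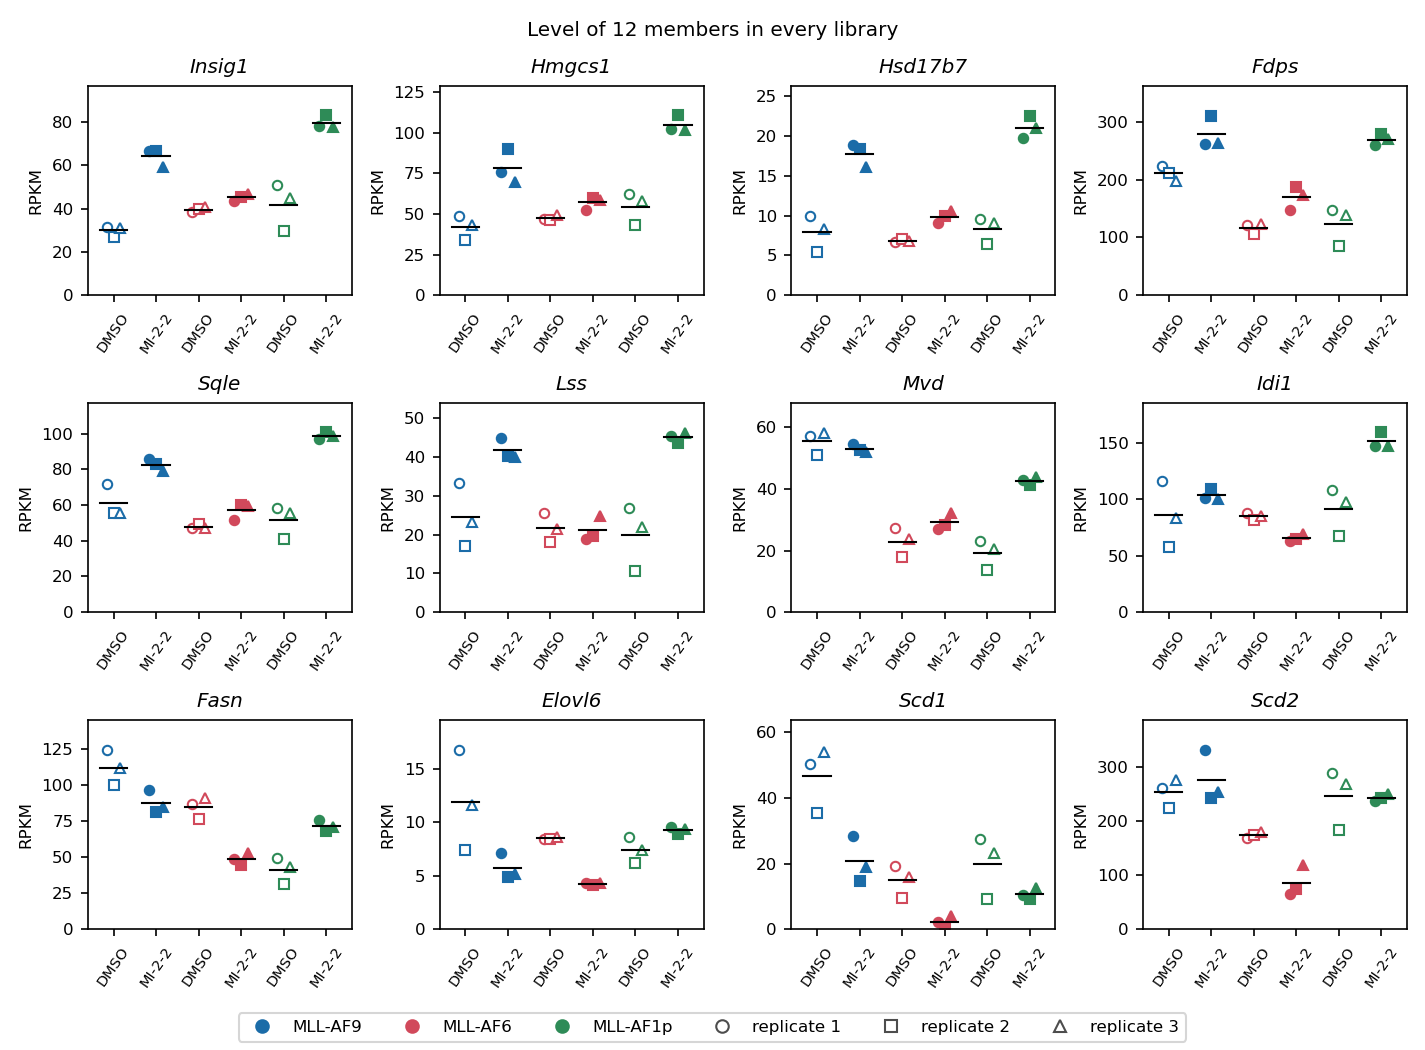
RPKM of 12 of the genes in every library, by construct (colour) and treatment (open, DMSO; filled, MI-2-2); the symbol gives the replicate number and the bar the group mean. Open squares, the second control libraries, are the lowest of their group in most panels, and the red filled symbols of Scd1 and Scd2 lie below every other group.

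Among the regulators, Srebf1 and Scap fell in MLL-AF6, while Insig1 and Srebf2 rose in the other constructs. Of the 6 genes of SREBP control and sterol transfer, 3 rose in MLL-AF9 (Srebf2, Insig1 and Stard4) and 3 in MLL-AF1p (Srebf2, Scap and Insig1), while in MLL-AF6 none rose and 2 fell (Srebf1 and Scap). The counts in MLL-AF1p were the same without its second control library. The 50.0% that rose in MLL-AF9 and MLL-AF1p lie above the share of all genes called higher, and the 33.3% that fell in MLL-AF6 lie below the 38.9% called lower. Median log2 fold changes were 0.19, -0.09 and 0.23 in MLL-AF9, MLL-AF6 and MLL-AF1p.

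Insig1 encodes the protein that holds SCAP and the SREBPs in the endoplasmic reticulum, and is itself a known SREBP target. In MLL-AF9 it measured 31.7, 26.8 and 31.2 RPKM in DMSO and 66.6, 66.5 and 59.4 with MI-2-2. In MLL-AF1p the values were 50.7, 29.4 and 44.9 against 78.3, 83.1 and 77.9, and in MLL-AF6 38.3, 39.6 and 40.7 against 43.5, 45.2 and 46.7. Treated and control libraries were separate in all 3 constructs, with the smallest gap in MLL-AF6. The rise was 2.13-fold in MLL-AF9 (adjusted p = 6.15e-06) and 1.95-fold in MLL-AF1p (adjusted p = 4.02e-05; 1.66-fold without the low control library), and the 1.14-fold difference in MLL-AF6 did not pass (adjusted p = 0.249). The MLL-AF6 effect was smaller than the MLL-AF9 effect by 0.90 (SE 0.19, limma adjusted p = 0.0026). Insig2, its paralog, stayed between group means of 2.27 and 2.77 RPKM and did not pass in any construct.

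Srebf2, the gene of SREBP-2, rose 1.30-fold in MLL-AF9, from 65.3 ± 2.47 to 84.8 ± 3.37 RPKM, and 1.41-fold in MLL-AF1p (1.27-fold without the low control library), from 54.8 ± 9.76 to 76.7 ± 0.668. In MLL-AF6 it measured 51.3 ± 3.04 and 53.8 ± 2.86. Srebf1, the gene of SREBP-1, fell in MLL-AF6 to 0.657 of control, from 40.8 ± 1.29 to 26.8 ± 3.65 RPKM (adjusted p = 0.000435), and did not pass in the others. That fall differed from the effect in MLL-AF9 by -0.50 (limma adjusted p = 0.0318).

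Scap went in opposite directions in 2 constructs. It fell in MLL-AF6, from 9.32 ± 0.0761 to 6.51 ± 0.059 RPKM (log2 fold change -0.49, adjusted p = 5.98e-06), and rose in MLL-AF1p, from 6.73 ± 0.486 to 7.91 ± 0.3 (0.22, adjusted p = 0.00737). In MLL-AF9 it measured 8.42 ± 0.347 and 8.40 ± 0.287. Scap was the gene that the low MLL-AF1p control library did not lower, and its rise there was 0.27 without that library. Stard4, a sterol carrier, rose 1.31-fold in MLL-AF9, from 26.4 ± 5.59 to 34.4 ± 3.03 RPKM, and this was lost without DMSO library 2 (log2 fold change 0.23, limma adjusted p = 0.154).

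Of the 3 genes of acetyl-CoA and NADPH supply, 1 rose and 1 fell in MLL-AF9 (Me1 and Acss2), 2 rose in MLL-AF1p (Acly and Me1), and none passed in MLL-AF6. Of all genes, 28.5% were called higher and 27.9% lower in MLL-AF9, so 1 of 3 lies near these shares. In MLL-AF1p 19.1% were called higher, and in MLL-AF6 57.0% were called in either direction. Acss2, which makes acetyl-CoA from acetate, fell in MLL-AF9, where it measured 22.0, 15.2 and 25.0 RPKM in DMSO and 12.9, 11.8 and 12.2 with MI-2-2 (log2 fold change -0.70, adjusted p = 0.0231). It measured 8.06, 5.23 and 6.65 against 5.12, 4.09 and 5.54 in MLL-AF6, and 12.3, 5.23 and 11.02 against 11.6, 11.3 and 12.4 in MLL-AF1p. These last groups overlapped, and the fall in MLL-AF9 did not pass without DMSO library 1 (-0.64, limma adjusted p = 0.0606). Acly, which makes acetyl-CoA from citrate, rose 1.23-fold in MLL-AF1p, a call lost without the low control library (log2 fold change 0.14, limma adjusted p = 0.164). Me1, the malic enzyme that yields NADPH, rose 1.53-fold in MLL-AF9 and 1.97-fold in MLL-AF1p (1.79-fold without the low control library) at group means of 0.348 to 4.02 RPKM. In MLL-AF9 its treated and control libraries overlapped, and the call was lost in 10 of 28 alternatives, among them a pseudocount of 0.1.

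Most fatty acid genes fell in MLL-AF6 cells and, less firmly, in MLL-AF9 cells. Of the 7, 4 fell in MLL-AF9 (Fasn, Acaca, Elovl6 and Scd1) and 5 in MLL-AF6 (the same 4 and Scd2), with none rising in either. In MLL-AF1p 3 rose (Fasn, Acaca and Fads2) and none fell. The 57.1% and 71.4% that fell compare with 27.9% and 38.9% of all genes, and the 42.9% that rose with 19.1%. With each library left out in turn, only the fall of Elovl6 passed every time in MLL-AF9, while all 5 falls in MLL-AF6 did. Median log2 fold changes were 0.23 in MLL-AF1p, -0.20 in MLL-AF9 and -0.80 in MLL-AF6. Without the second MLL-AF1p control library, 1 rose there (Fasn) and 1 fell (Scd1), with a median of 0.17.

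Fasn, fatty acid synthase, fell in 2 constructs and rose in the other. In MLL-AF9 it measured 124.5, 100.5 and 112 RPKM in DMSO and 96.9, 81.4 and 84.8 with MI-2-2. In MLL-AF6 the values were 87.3, 76.7 and 91.5 against 48.7, 44.7 and 52.8, and in MLL-AF1p 49.5, 31.1 and 43.4 against 75.9, 68.0 and 71.2. No treated library overlapped a control of its construct. The log2 fold changes were -0.35 (SE 0.14, adjusted p = 0.0364), -0.80 (SE 0.14, adjusted p = 0.000139) and 0.81 (SE 0.14, adjusted p = 0.000176; 0.62 without the low control library). The MLL-AF1p effect exceeded that in MLL-AF9 by 1.17 (limma adjusted p = 0.000331) and that in MLL-AF6 by 1.61 (limma adjusted p = 3.11e-05). The control level in MLL-AF1p was itself lower than in MLL-AF9 by 1.45 and than in MLL-AF6 by 1.06 on the log2 scale, and the treated mean of 71.7 RPKM stayed below the MLL-AF9 and MLL-AF6 controls at 112.3 and 85.1.

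Acaca, acetyl-CoA carboxylase, had the same signs at smaller size. It fell in MLL-AF6 from 12.9 ± 0.214 to 7.64 ± 0.173 RPKM (log2 fold change -0.72, adjusted p = 9.02e-07) and in MLL-AF9 from 15.0 ± 1.53 to 13.0 ± 0.973 (-0.20, adjusted p = 0.0348). Its rise in MLL-AF1p, from 12.7 ± 0.845 to 14.9 ± 0.529, was lost without the low control library (0.17, limma adjusted p = 0.0989), and its fall in MLL-AF9 was lost without DMSO library 1 (-0.12, limma adjusted p = 0.159). The fall of Fasn in MLL-AF9 was also lost without that library (-0.28, limma adjusted p = 0.124). Over all 11238 genes, 8.14% were called higher in 1 construct and lower in another; of the 32 genes these were Fasn, Acaca and Scap.

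Elovl6, the elongase that takes palmitate to stearate, fell to 0.518 of control in MLL-AF9 and 0.526 in MLL-AF6. In MLL-AF9 it measured 16.8, 7.45 and 11.6 RPKM in DMSO and 7.09, 4.92 and 5.13 with MI-2-2. In MLL-AF6 it measured 8.46, 8.43 and 8.64 against 4.33, 4.09 and 4.31, and in MLL-AF1p 8.66, 6.22 and 7.37 against 9.57, 8.95 and 9.38. The MLL-AF6 libraries were tight within each group, and in MLL-AF1p the treated libraries lay just above the controls without passing (adjusted p = 0.209). The MLL-AF1p effect differed from that in MLL-AF9 by 1.27 (limma adjusted p = 0.00314) and from that in MLL-AF6 by 1.24 (limma adjusted p = 0.00411).

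Scd1, the desaturase that turns stearate into oleate, had the largest fall of the 32 genes. In MLL-AF6 its controls measured 19.1, 9.59 and 15.8 RPKM and its treated libraries 2.15, 0.686 and 3.99, which is 0.163 of control on the fitted scale (log2 fold change -2.61, SE 0.44, adjusted p = 0.000125). In MLL-AF9 it measured 50.3, 35.5 and 54.0 against 28.5, 14.6 and 18.9, a log2 fold change of -1.18 (adjusted p = 0.0316) that did not pass without DMSO library 1 (-1.12, limma adjusted p = 0.0706). In MLL-AF1p it measured 27.4, 9.33 and 23.1 against 10.5, 9.14 and 12.5. The second MLL-AF1p control lay among the treated libraries, and the difference of -0.74 did not pass with it (limma adjusted p = 0.181) but was -1.205 and passed without it (limma adjusted p = 0.0392). Group means of Scd1 spanned 20.5-fold, more than for any other of the 32 genes.

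Scd2, its paralog and the most abundant of the 32 genes, fell only in MLL-AF6, and the difference between constructs passed. It measured 168.2, 175.2 and 179.8 RPKM in DMSO and 65.8, 74.3 and 119 with MI-2-2 in MLL-AF6 (log2 fold change -1.06, adjusted p = 0.000249). The values were 260.9, 225 and 275.4 against 331.1, 243.9 and 254.8 in MLL-AF9, and 289.2, 183.1 and 268 against 236.9, 242.3 and 249.9 in MLL-AF1p, where treated and control libraries overlapped. The MLL-AF6 effect differed from that in MLL-AF9 by -1.17 (limma adjusted p = 0.00435), and the MLL-AF1p effect exceeded it by 1.06 (limma adjusted p = 0.00824). How reads matching both Scd1 and Scd2 were counted is not given in the sources used here.

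The desaturases of polyunsaturated fatty acids did not share these falls. Fads1 did not pass in any construct, with log2 fold changes of 0.22, 0.29 and 0.23, and its 3 effects did not differ by the F test (adjusted p = 0.945). Fads2 rose 1.94-fold in MLL-AF1p, from 23.6 ± 13.3 to 40.1 ± 2.51 RPKM, and this was lost without the low control library (log2 fold change 0.38, limma adjusted p = 0.182).

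**Figure D3:**
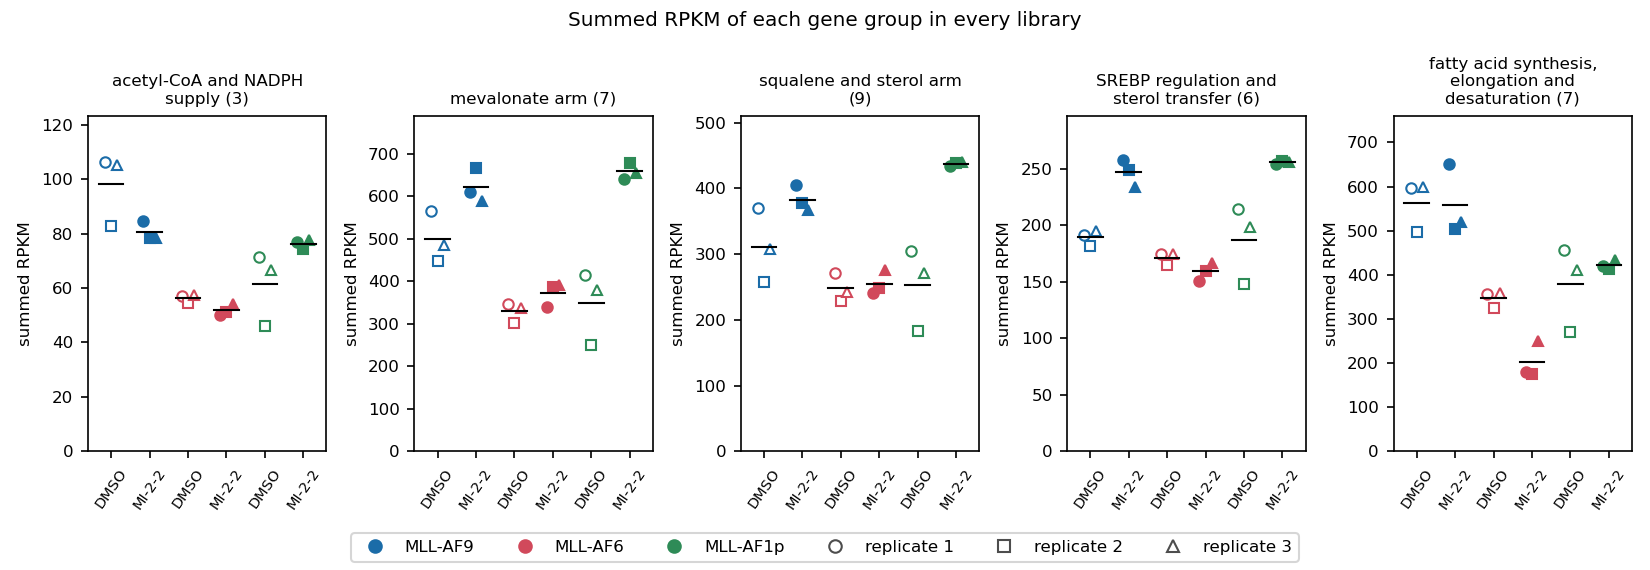
Summed RPKM of each of the 5 gene groups in every library, by construct and treatment, with group means as bars. In MLL-AF6 the fatty acid sum is lower in all 3 treated libraries while the sterol sums overlap, and in MLL-AF1p the sterol sums are higher in all 3.

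Summed over genes, the sterol and fatty acid sides can be read per library. The mevalonate sum ranged from 447 to 564.6 RPKM in MLL-AF9 DMSO and 589.1 to 666.1 with MI-2-2, and from 249.3 to 415.6 against 640.9 to 678.6 in MLL-AF1p. The fatty acid sum was 495.9 to 598.6 in DMSO and 503.9 to 651 with MI-2-2 in MLL-AF9, where it overlapped, Scd2 being its largest part. It ranged from 324.6 to 358.7 against 174.6 to 251 in MLL-AF6, and from 271 to 456.5 against 413.4 to 433.1 in MLL-AF1p, where it overlapped. Of all counted reads, the 32 genes together held 0.6996% in control and 0.745% in treated MLL-AF9 cells, 0.494% and 0.403% in MLL-AF6 cells, and 0.503% and 0.714% in MLL-AF1p cells, as means of 3 libraries.

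Whether the response differed between constructs was tested directly. By the F test over the 3 effects, 23 of the 32 genes differed (71.9%, against 52.8% of all genes); without the second MLL-AF1p control library 19 did. In pairs, the MLL-AF1p effect was higher than the MLL-AF6 effect for 22 genes and lower for none (19.5% of all genes were higher and 11.6% lower, 31.1% in all), and higher than the MLL-AF9 effect for 9 and lower for none (13.6% and 21.4%, 35.1% in all). The MLL-AF6 effect was lower than the MLL-AF9 effect for 9 and higher for none (24.0% and 9.02%, 33.1% in all). The 3 counts of none were also 0 at an unadjusted limma p under 0.05 and by voom. These comparisons share libraries. Without the second MLL-AF1p control the first count was 19, the second 8, and 1 gene had a lower effect in MLL-AF1p than in MLL-AF9. The third count was 4 without MI-2-2 library 1 of MLL-AF6, and 5 without MI-2-2 library 2 or DMSO library 1 or 3 of MLL-AF6, or MI-2-2 library 1 or 2 of MLL-AF9.

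By role, the genes with a higher effect in MLL-AF1p than in MLL-AF6 were 6 of 7 mevalonate, 7 of 9 squalene and sterol, 4 of 6 regulatory, 5 of 7 fatty acid and 0 of 3 supply genes (2 of 3 at an unadjusted limma p under 0.05). The largest differences were those of Scd1 (1.87), Fasn (1.61), Lss (1.29) and Elovl6 (1.24). These counts by role, and the differences from MLL-AF1p given by gene, include the low control library. Without it the MLL-AF1p effects of these genes were lower. They were -1.205 for Scd1 (-0.74 with it), 0.62 for Fasn (0.81), 0.88 for Lss (1.26) and 0.21 for Elovl6 (0.32). With all libraries, the fitted effect was higher in MLL-AF1p than in MLL-AF6 for 30 of the 32 genes, the exceptions being Insig2 and Fads1. The 9 genes with a lower effect in MLL-AF6 than in MLL-AF9 were Hmgcs1, Cyp51, Hsd17b7, Srebf1, Scap, Insig1, Stard4, Acaca and Scd2.

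**Figure D4:**
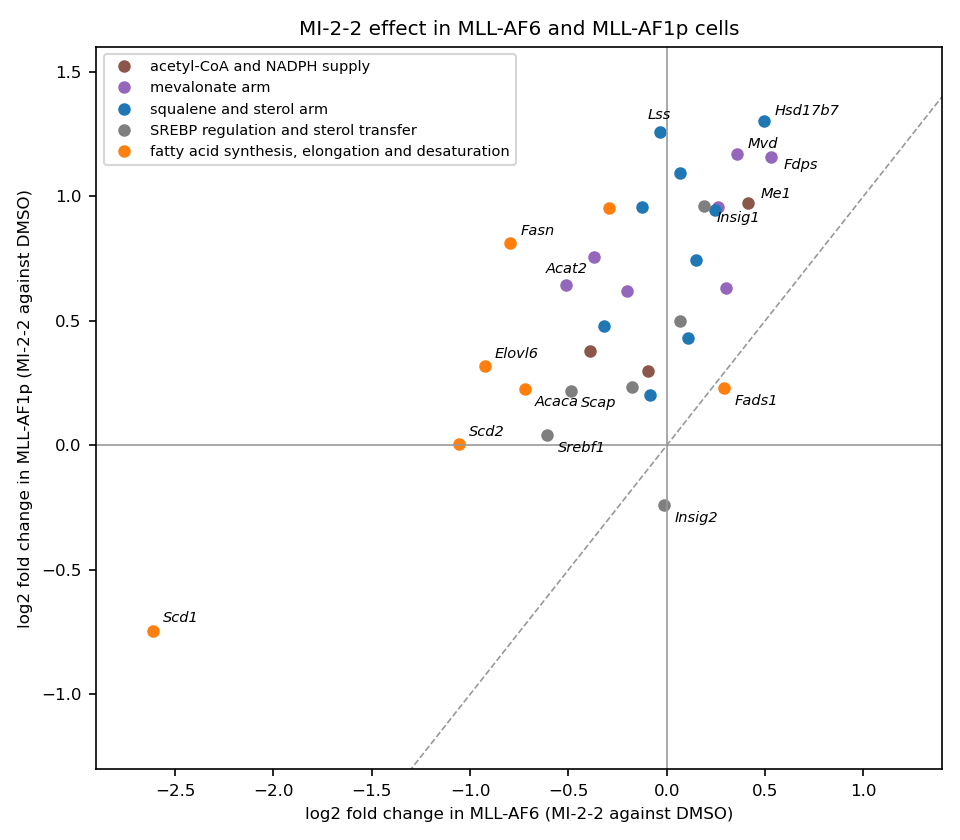
Log2 fold change with MI-2-2 in MLL-AF6 cells (horizontal) against MLL-AF1p cells (vertical), 1 point per gene coloured by role; the dashed line marks equal effects. The points lie above the line for 30 of the 32 genes, and the fatty acid genes Scd1, Scd2, Elovl6, Fasn and Acaca lie farthest to the left.

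The 2 genes up in all 3 constructs were Fdps and Hsd17b7, where 8.64% of all genes were so called. The call of Fdps in MLL-AF9 and that of Hsd17b7 in MLL-AF6 were each lost in some alternatives. None of the 32 was down in all 3, against 11.4% of all genes. A further 8 genes rose in MLL-AF9 and MLL-AF1p without passing in MLL-AF6 (3.05% of all genes). Another 9 rose in MLL-AF1p and passed in neither other construct (2.94%). Without the second MLL-AF1p control library, Acly, Pmvk, Dhcr7 and Fads2 of these 9 lost the call in MLL-AF1p. Fdft1 and Mvk then passed in MLL-AF9 as well, and Mvk and Mvd in MLL-AF6, so only Idi1 and Nsdhl kept that pattern. Of the 8, Sqle and Insig1 then also passed in MLL-AF6. Not called in any construct were 4 genes, Acat2, Tm7sf2, Insig2 and Fads1, against 16.0% of all genes. By whole groups rather than means, all 3 treated libraries lay above all 3 controls for 24 genes in MLL-AF1p, 14 in MLL-AF9 and 5 in MLL-AF6, where 28.9%, 29.0% and 19.4% of all genes did. They lay below them for 1, 5 and 12, where 40.3%, 28.2% and 41.5% did.

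Under DMSO the constructs already differed in these genes. Most of those that differed were highest in MLL-AF9: 19 of the 32 genes were lower in MLL-AF6 than in MLL-AF9 and 1 was higher (24.5% and 29.1% of all genes, 53.6% in all), with a median log2 difference of -0.40. Likewise 19 were lower in MLL-AF1p than in MLL-AF9 and 3 higher (28.6% and 36.5%, 65.1% in all), with a median of -0.39. Between MLL-AF1p and MLL-AF6, 4 were higher and 2 lower in MLL-AF1p (28.8% and 23.7%, 52.5% in all). Without the second MLL-AF1p control library, 13 were lower and 4 higher in MLL-AF1p than in MLL-AF9, and 11 were higher than in MLL-AF6. The single gene higher in MLL-AF6 than in MLL-AF9 became 3 without DMSO library 1 of MLL-AF9 and 0 without its DMSO library 2 or DMSO library 3 of MLL-AF6. Without DMSO library 1 of MLL-AF1p, 1 gene was higher there than in MLL-AF9 and 2 than in MLL-AF6. The MLL-AF1p controls enter both this comparison and the drug effect in that construct.

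Lower controls were found in every role, but not evenly. All 3 supply genes and 6 of 7 fatty acid genes were lower in both MLL-AF6 and MLL-AF1p than in MLL-AF9, as were 4 and 5 of the 7 mevalonate genes and 4 and 2 of the 9 sterol genes. Of the 6 regulatory genes, 2 and 3 were lower and 1 and 2 higher. Of all genes, 24.5% and 28.6% were lower, so the 22.2% of sterol genes lower in MLL-AF1p lie below that share. Me1 had the widest gap to MLL-AF6 (-1.76), with 0.348 ± 0.113 RPKM there, 2.42 ± 0.739 in MLL-AF9 and 1.19 ± 0.306 in MLL-AF1p. Fads1 was 66.8 ± 4.67 RPKM in MLL-AF9 DMSO against 26.1 ± 3.71 and 28.0 ± 6.65. Insig1 was the 1 gene higher in MLL-AF6 than in MLL-AF9. Higher in MLL-AF1p than in MLL-AF9 were Hmgcs1, Insig1 and Stard4, the last at 45.4 ± 9.26 against 26.4 ± 5.59 RPKM. With all 6 groups set in order of mean, treated MLL-AF1p cells were highest for 12 genes, control MLL-AF9 cells for 10 and treated MLL-AF9 cells for 8, and treated MLL-AF6 cells were lowest for 15.

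Other genes of the same routes gave a mixed picture. Of 17 further genes of sterol synthesis and uptake, 8 rose and 3 fell in MLL-AF1p, 3 and 5 in MLL-AF9, and 1 and 7 in MLL-AF6. In that order 64.7%, 47.1% and 47.1% were called in either direction, against 45.4%, 56.4% and 57.0% of all genes. Among all genes, 19.1% were called higher and 26.3% lower in MLL-AF1p, 28.5% and 27.9% in MLL-AF9, and 18% and 38.9% in MLL-AF6. Ggps1, which makes geranylgeranyl diphosphate, fell in MLL-AF9 (-0.43) and MLL-AF6 (-0.61).

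Genes of sterol export, esterification and LXR control rose more often than they fell. Of 15, 6 rose and 1 fell in MLL-AF1p, 8 and 3 in MLL-AF9, and 9 and 4 in MLL-AF6. In that order 46.7%, 73.3% and 86.7% were called, against 45.4%, 56.4% and 57.0% of all genes. The share called in MLL-AF1p was thus near that of all genes. Those with the largest changes were Nceh1, a cholesteryl ester hydrolase (2.00, 2.23 and 1.17 in MLL-AF9, MLL-AF6 and MLL-AF1p), Rxra, the partner receptor of LXR (1.46, 2.49 and 1.02), and Lipa, lysosomal acid lipase (1.22, 2.31 and 0.42). All 9 of these changes passed. Apoc2, an apolipoprotein, fell in MLL-AF6 (-1.75) and did not pass in MLL-AF9 (-1.09) or MLL-AF1p (-1.20).

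Among 23 other fatty acid and triglyceride genes, 8 rose and 5 fell in MLL-AF1p, 8 and 7 in MLL-AF9, and 6 and 8 in MLL-AF6. In that order 56.5%, 65.2% and 60.9% were called, against 45.4%, 56.4% and 57.0% of all genes. Acsl1, which activates fatty acids with CoA, rose in every construct (1.09, 1.42 and 1.21), and Ptplb, a dehydratase of elongation, did too (0.55, 1.10 and 1.06). Mlxipl, the gene of the carbohydrate response factor ChREBP, fell by 1.65 in MLL-AF9 and by 0.59 in MLL-AF6. Pnpla2, a triglyceride lipase, fell in all 3 (-0.90, -0.62 and -0.31 in MLL-AF9, MLL-AF6 and MLL-AF1p). Of 15 genes of PPAR control and fatty acid breakdown, 4 rose and 4 fell in MLL-AF1p, 4 and 5 in MLL-AF9, and 5 and 5 in MLL-AF6. The shares called were 53.3%, 60.0% and 66.7%, beside the same shares of all genes. Fabp4, a fatty acid binding protein of macrophages and fat cells, rose from at most 0.321 RPKM to 11.8, 7.42 and 17.4 RPKM. Fabp5 rose by 0.80, 3.22 and 1.63, Pparg by 1.63, 2.16 and 0.85, and Angptl4 fell in MLL-AF9 (-1.52) and MLL-AF6 (-1.14).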

How the data were processed

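The 32 genes, the roles and the other gene lists were chosen with earlier results of these data known. The deposited table holds the authors' RPKM and, per the file headers, each gene's length. The build mm9 and the tools Bowtie2 2.0.0.7, CASAVA 1.8.2, edgeR and HTSeq are listed, per the submitters' processing notes, with no roles; how reads matching several genes were counted is not given in the sources used here. RPKM times length gave whole reads for all values within 0.05 of a read, hence the depth. Genes with at least 1 RPKM in at least 3 of 18 libraries were tested with limma 3.58.1 (R 4.3.3) on log2(RPKM + 0.5): 6 group means in 1 fit, a trended prior, 12 residual degrees of freedom, Benjamini-Hochberg adjustment within each comparison. The fit was tested on simulated data. Genes with a log2 change of 1 in any construct, or effects spanning 1 that passed the F test, have every library given; of other lists up to 4 genes are named by mean size of change, and some that this rule names are not reported here. Alternatives were a pseudocount of 0.1, no filter, median centring, quantile normalization, constant prior variance, a replicate block, constructs or the DMSO libraries fitted alone, voom on the recovered reads and libraries left out. Leaving out all libraries numbered 1 or 2 was added after seeing the data. Figures used matplotlib 3.10.9 in Python 3.11.15.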

Additional observations from a re-analysis of the deposited data

Results flagged for a closer look

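For 23 of the 32 genes the effect of MI-2-2 differed among the 3 constructs by limma's F test of the interaction, with Benjamini-Hochberg adjustment over all genes. The adjusted p was 2.15e-05 for Acaca, 3e-05 for Fasn and 3.39e-05 for Scap, the 3 genes that fell in at least 1 construct and rose in another. The rise of Acaca in MLL-AF1p was lost without the low control library (limma adjusted p = 0.0989). It was 0.00118 for Mvd, 0.00235 for Elovl6, 0.00255 for Insig1, 0.00382 for Scd2, 0.00614 for Sqle and 0.00831 for Idi1. It was 0.0106 for Srebf1, 0.0124 for Hmgcs1, 0.0143 for Nsdhl, 0.0154 for Cyp51, 0.0174 for Fdps, 0.0185 for Hsd17b7 and 0.0206 for Acly. The weakest were Lss at 0.025, Dhcr7 at 0.0341, Acat2 at 0.0352, Srebf2 at 0.0365, Acss2 at 0.039, Scd1 at 0.0434 and Pmvk at 0.0486. Of 27 alternatives, 18 lost the call of Pmvk, 13 that of Acss2 and 9 that of Acat2.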

How the results depend on the processing

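No effect of a single gene changed sign while called. Of 2688 recomputed effects of the 32 genes, 2524 kept their side of the threshold and 2486 kept both it and their direction; the other 38 changed sign while not passing. Of 864 recomputed F tests 763 kept their call. Counts of the 32 genes that moved by more than 1.5 times were as follows.

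Without the filter, MLL-AF9 had 6 rises and 2 falls and MLL-AF6 had 1 rise, the lower MLL-AF6 than MLL-AF9 effects numbered 4, the higher MLL-AF1p than MLL-AF6 effects 14, and the F test called 12. With median centring, MLL-AF9 had 7 rises, MLL-AF6 had 7, the lower MLL-AF6 than MLL-AF9 effects numbered 4, and no gene was higher in MLL-AF6 than in MLL-AF9 controls (0). Centring also moved the share of higher among all calls in MLL-AF6 from 31.6% to 41.9%. With quantile normalization MLL-AF6 had 6 rises and 5 lower effects than MLL-AF9. Voom on recovered reads gave 1 fall in MLL-AF1p and 2 genes higher in MLL-AF6 than MLL-AF9 controls. With each construct fitted alone MLL-AF6 had 5 rises and MLL-AF1p 1 fall. With the DMSO libraries alone, 0 genes were higher in MLL-AF6 and 1 in MLL-AF1p than in MLL-AF9.

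Same-numbered DMSO and MI-2-2 libraries deviated together at r = 0.00079 to 0.557 across genes, with 5 of 9 pairs over 0.1. In MLL-AF9, MLL-AF6 and MLL-AF1p, r was 0.281, 0.493 and 0.098 for number 1 and 0.460, 0.557 and 0.210 for number 2. For number 3 it was 0.0139, 0.00079 and 0.0261. Deviations were taken from means of 3 libraries, so the 3 values of a construct are not independent. For same-numbered DMSO libraries of 2 constructs r was -0.098 to 0.627, with 6 of 9 pairs over 0.1. Between DMSO libraries numbered 2 it was 0.599 for MLL-AF9 and MLL-AF6, 0.218 for MLL-AF9 and MLL-AF1p, and 0.264 for MLL-AF6 and MLL-AF1p. Since not every pair was over 0.1, and the labels name no shared origin, the numbers were not taken to pair libraries. These values, and the 11 of 18 libraries that correlated best with their own number among the 3 of the other treatment, are a hint from the data of some sharing. The main fit leaves any such sharing out. With the replicate block MLL-AF6 had 5 rises, MLL-AF1p had 2 falls, 14 genes had a higher effect in MLL-AF1p than in MLL-AF9, and 2 were higher in MLL-AF6 than in MLL-AF9 controls. Effects called under the block and not in the main fit were, in MLL-AF6, Me1, Mvd and Fads1 higher and Acat2 and Dhcr7 lower. In MLL-AF1p they were Acat2 higher and Insig2 and Scd1 lower. Each of these effects also passed under some other alternative.

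Without libraries numbered 1, MLL-AF9 had 1 fall, MLL-AF6 had 4 rises, and 1 and 2 genes were higher in MLL-AF1p than in MLL-AF9 and MLL-AF6 controls. Without libraries numbered 2, MLL-AF6 had 5 rises and 12 falls, MLL-AF1p had 1 fall, 1 gene had a higher effect in MLL-AF6 than in MLL-AF9, and 12 were higher in MLL-AF1p than in MLL-AF6 controls.

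With 1 library left out, rises numbered 6 to 13 and falls 1 to 7 in MLL-AF9, 1 to 7 and 7 to 9 in MLL-AF6, and 17 to 24 and 0 to 1 in MLL-AF1p. Lower MLL-AF6 than MLL-AF9 effects numbered 4 to 13 and higher ones 0. Higher MLL-AF1p than MLL-AF9 effects numbered 7 to 13 and lower ones 0 to 1, and higher MLL-AF1p than MLL-AF6 effects 16 to 25 and lower ones 0. In controls, 0 to 3 genes were higher and 13 to 21 lower in MLL-AF6 than in MLL-AF9, 1 to 4 and 13 to 22 in MLL-AF1p than in MLL-AF9, and 2 to 11 and 2 to 3 in MLL-AF1p than in MLL-AF6. The F test called 16 to 27. Groups left with 2 libraries share the spread of the others. The cause of these shifts was not tested. Depth limits Me1 and Scd1 most.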
